A study of Rattus norvegicus with 13 samples.

Results

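The major histocompatibility interval of the rat, which holds the RT1 complex, was taken as every 1 kb window of chromosome 20 from 1500001 to 5500000 in the genome build Rnor_6.0. It comprised 4000 windows, out of 56206 on chromosome 20 and 2782040 in all. The other 52206 windows of chromosome 20 served as the comparison. The windows were chosen by position alone, and no measured value entered their choice. In 13 libraries, DNA methylation was read by MeDIP-seq, in which an antibody against methylated cytosine pulls down DNA fragments that are then sequenced. A window's signal therefore follows both how much of its DNA is methylated and how many cytosines it offers for methylation.

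All rats were of the outbred stock Hsd:Sprague Dawley SD. Pregnant females of generation F0 were injected intraperitoneally with the insecticide DDT, or with its solvent DMSO for the control lineage, once a day on embryonic days 8 through 14, and no later generation was dosed. Sperm of generation F3 males aged 1 year came from the cauda epididymis in 3 control and 4 DDT lineage libraries. Morulae, the compact balls of cells that precede the blastocyst, came from intracytoplasmic injection of sperm into eggs of superovulated SD donors, with 3 libraries per lineage. The samples are described as pools of sperm and of embryos. A morula carries the donor female's genome beside that of the sperm, so its signal covers both. The labels do not say that replicates came from separate animals, so p-values measure the spread between these libraries, which may in part be technical.

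The RT1 complex is the rat counterpart of human HLA. Its class I genes encode surface proteins that present peptides from inside the cell to cytotoxic T cells, and its class II genes encode those that present taken-up peptides to helper T cells. The transporter subunits Tap1 and Tap2, the immunoproteasome subunits Psmb8 and Psmb9 and the chaperone Tapbp prepare peptides for class I. Class I genes are duplicated and vary between haplotypes, and sperm DNA is packed mainly on protamines and highly methylated, whereas the cleavage embryo passes through a wave of demethylation.

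The gene content was read from RefSeq on the later build GRCr8, in names and order only, because no annotation of Rnor_6.0 was used here. Windows were therefore not assigned to genes, and the presence of the RT1 genes inside these coordinates was not checked. In that order RT1-M class I genes come first, followed by the RT1-T, RT1-N and RT1-S genes and the RT1-CE cluster. The cytokine genes Lta, Tnf and Ltb follow, then the heat shock genes Hspa1l, Hspa1a and Hspa1b and the complement genes C2, Cfb, C4a and C4b. Class II genes from RT1-Da to RT1-Ha come next with Tap2, Psmb8, Tap1 and Psmb9 lying among them, and RT1-A3, RT1-A2, RT1-A1 and Tapbp close the row. There were 54 class I entries on chromosome 20, of which 34 are protein-coding and 16 are pseudogenes, and there were 5 antigen processing genes and 7 complement and heat shock genes. The class II list had 12 entries, including the butyrophilin-like gene Btnl2, and the cytokine list 6, including Lst1, Ncr3 and Aif1, which are not cytokines.

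How many CpG sites a gene start offers differs between these groups, which bears on how much signal MeDIP can give there. In the 250 bases before the first listed start, RefSeq promoters (GRCr8) held a median of 17 CpG in the 5 antigen processing genes, 5 in 33 class I genes and 3 in 10 genes of the class II list, Btnl2 among them. The median was 6 over 27457 genes with a promoter and 7 over 785 genes of chromosome 20. The range was 8 to 19 in the antigen processing genes, 0 to 14 in class I and 0 to 6 in class II. One promoter of each group is shown as an example: RT1-A2 encodes a classical class I heavy chain, RT1-Da a class II alpha chain and Tap1 a peptide transporter subunit. They hold 13, 0 and 17 CpG. Of these, only Tap1 lies at the median of its group, whereas RT1-A2 is near the top of class I and RT1-Da at the bottom of class II. Each sequence is the strand of its gene, 5′ to 3′, with every CpG in capitals, and none of them was placed on a window of the data.

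RT1-A2: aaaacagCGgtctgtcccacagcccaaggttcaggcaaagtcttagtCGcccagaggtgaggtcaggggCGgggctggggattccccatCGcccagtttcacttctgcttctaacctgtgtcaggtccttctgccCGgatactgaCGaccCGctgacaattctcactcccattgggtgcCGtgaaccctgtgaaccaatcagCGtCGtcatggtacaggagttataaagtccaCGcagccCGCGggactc
RT1-Da: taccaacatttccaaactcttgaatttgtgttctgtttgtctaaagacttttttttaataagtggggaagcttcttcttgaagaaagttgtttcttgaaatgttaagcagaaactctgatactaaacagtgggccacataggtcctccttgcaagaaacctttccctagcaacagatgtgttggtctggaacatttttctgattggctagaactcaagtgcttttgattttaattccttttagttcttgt
Tap1: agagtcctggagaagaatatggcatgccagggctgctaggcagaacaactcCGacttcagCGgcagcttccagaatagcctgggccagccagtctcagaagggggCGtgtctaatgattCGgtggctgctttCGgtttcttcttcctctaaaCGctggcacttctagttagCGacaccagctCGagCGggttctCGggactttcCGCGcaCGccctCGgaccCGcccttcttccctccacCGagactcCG

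Library totals ran from 30386626 to 193750804 counts, and the interval took 45483 to 340280 of them. Control sperm replicate 3 and DDT sperm replicate 4, with 30386626 and 33684143 counts, stood apart from the rest. Each left 14.1% and 12.9% of the interval's windows without a count, in that order, against 5.25% to 6.53% in the other 11 libraries, which held at least 37842198 counts each. Results that rest on this pair are given with and without them.

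Signal is given as CPM, the count per 1000000 counts of its library. In control morulae the 4000 windows averaged 0.408, 0.416 and 0.416 CPM in replicates 1 to 3, and in DDT morulae 0.415, 0.412 and 0.410. Control sperm averaged 0.403, 0.439 and 0.374 CPM, and DDT sperm 0.433, 0.448, 0.432 and 0.374. The level of the interval was thus nearly equal in all 6 morula libraries and spread more widely in sperm, where the lowest value of each lineage was that of the library standing apart. Morulae and sperm overlapped. Over both lineages the morula level differed from the sperm level by 0.0013 on the log2 scale, with 6 against 7 libraries (p = 0.979, exact permutation test within lineages, two-sided).

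The rest of the chromosome behaved differently. Its windows averaged 0.348 ± 0.0016 CPM (SD, n = 3) in control morulae and 0.346 ± 0.0023 (SD, n = 3) in DDT morulae, against 0.414 ± 0.014 (SD, n = 3) in control sperm and 0.412 ± 0.010 (SD, n = 4) in DDT sperm. It fell by 0.25 on the log2 scale in morulae (p = 0.00143, exact permutation test, the smallest that 700 arrangements allow). Relative to it, the interval stood higher in every morula library than in any sperm library.

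The log2 ratio of interval to rest of chromosome was 0.228, 0.250 and 0.263 in control morulae and 0.273, 0.244 and 0.240 in DDT morulae. In control sperm it was -0.039, 0.034 and -0.098, and in DDT sperm 0.046, 0.093, 0.072 and -0.089. The morula ratio exceeded the sperm ratio by 0.25 over both lineages, a 1.19-fold difference (exact permutation p = 0.00143, two-sided, adjusted p = 0.00714 over the 5 tests of the ratio). Within the control lineage the difference was 0.28, with exact p = 0.10, which is the smallest that 3 against 3 allow. Within the DDT lineage it was 0.22, with exact p = 0.0286, also the smallest possible and an adjusted p of 0.0714. With the whole library outside the interval as denominator the difference over both lineages was 0.0013 (exact p = 0.979), so it belongs to the comparison with this chromosome and not to that with the genome. With both outlying sperm libraries left out it was 0.22 (exact p = 0.005).

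**Figure D1:**
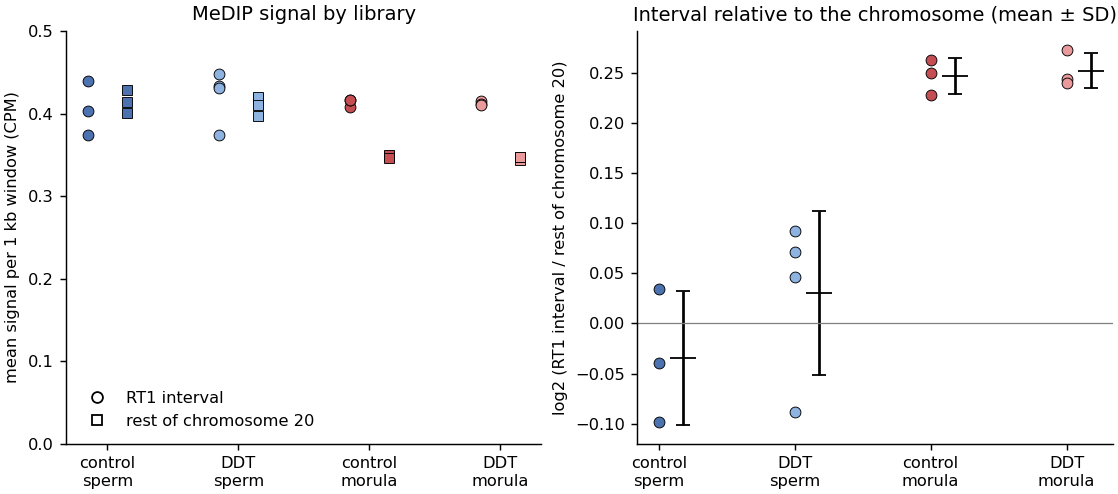
Left, mean signal per 1 kb window (CPM, y axis) in the RT1 interval (circles) and the rest of chromosome 20 (squares), 1 point per library for each group on the x axis. Right, log2 ratio of interval to rest by library, with the mean and SD of each group beside the points. The morula libraries lie between 0.228 and 0.273 and the sperm libraries between -0.098 and 0.093.

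No difference between the DDT and control lineages in the ratio passed a test. In morulae it was 0.0054 on the log2 scale (exact permutation p = 0.80, 3 against 3), and in sperm 0.065 (exact permutation p = 0.286, 4 against 3), both two-sided. Leaving out 1 library moved the sperm value from 0.033 (without control sperm replicate 3) to 0.105 (without DDT sperm replicate 4), with exact permutation p of 0.10 to 0.667. With both of these left out it was 0.073, and the 3 DDT values of 0.046, 0.072 and 0.093 lay above the 2 control values of -0.039 and 0.034 (exact permutation p = 0.10). That is the smallest p that 3 against 2 libraries allow, so the test could not have passed there. Leaving out DDT sperm replicate 4 alone leaves 3 against 3, where 0.10 is the smallest too.

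Cutting chromosome 20 into 15 blocks, of which 13 hold 4 Mb and both ends are shorter, put the interval in its context. Each block was set against all others in the same group. The RT1 block had the highest morula level of the 15 in both lineages, at 0.25 above the other blocks on the log2 scale in each. In sperm it ranked 8 in the control lineage and 6 in the DDT lineage, at -0.03 and 0.03. In the difference of morula from sperm it ranked only 4 and 5. Above it in both lineages were the 1.5 Mb before the interval, the 2706 windows at the far end of the chromosome and the block at 37500001 to 41500000 (0.46 and 0.53), and in the DDT lineage also the block at 33500001 to 37500000 (0.32). The block at 5500001 to 9500000, which follows the interval, had the lowest morula level in both lineages, at -0.13 and -0.15, and the second highest sperm level, at 0.34 and 0.36. The blocks of highest and lowest mean morula level thus lay side by side. Blocks were cut at the edges of the interval, so where along the chromosome the level changes was not tested.

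**Figure D2:**
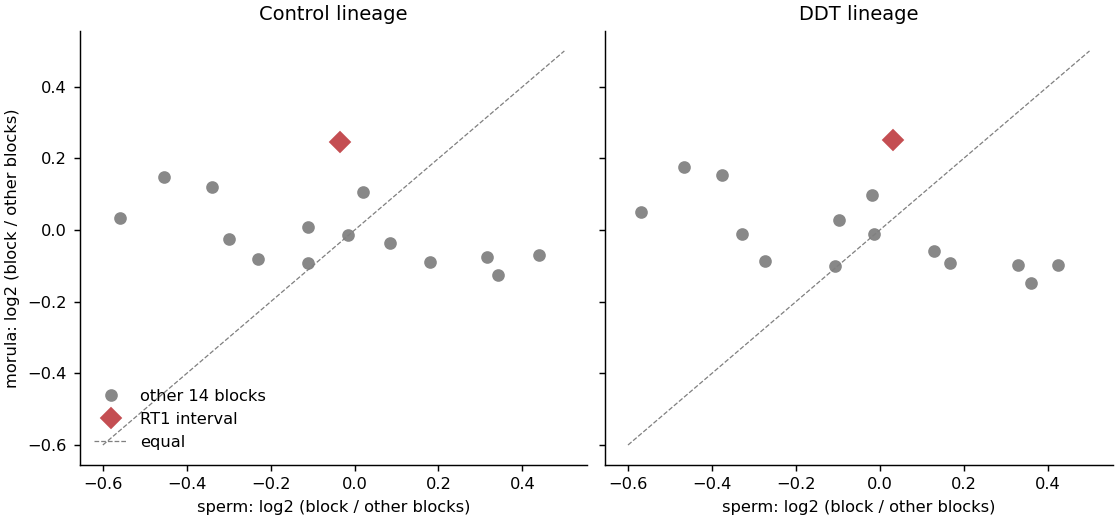
Level of 15 blocks of chromosome 20 in sperm (x axis) and morulae (y axis), each as the log2 ratio to the other blocks, by lineage. The RT1 interval (red diamond) lies above the other 14 blocks (grey) on the morula axis and near the middle on the sperm axis, and the dashed line marks equal levels.

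Within the interval, windows changed in both directions between sperm and morula. In the control lineage 3684 of the 4000 windows held enough counts to be tested (a total of at least 5 per library). Of these, 748 (20.3%) were higher and 585 (15.9%) lower in morulae by edgeR's quasi-likelihood test. The threshold was an adjusted p of 0.05 (Benjamini-Hochberg, over every tested window of the genome). In the rest of chromosome 20, 13% were higher and 20.1% lower, and in the genome 16.9% and 12.3%. In this lineage the rest of the chromosome leaned to lower signal and the interval to higher.

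In the DDT lineage 3571 windows were tested, and 750 (21.0%) were higher and 798 (22.3%) lower in morulae. The shares in the rest of the chromosome were 14.3% higher and 25% lower, and in the genome 18.3% and 16.6%. Over tested windows the median log2 difference was 0.05 for the control lineage and -0.13 for the DDT lineage, against -0.18 and -0.28 in the rest of the chromosome. Scaling by library size moved the interval's medians to 0.13 and -0.01, and gave 840 higher and 648 lower windows in the DDT lineage, so the order of these 2 counts rests on the scaling. Neighbouring windows share fragments and are not independent, so the shares are given as a description without a test of their own.

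Large changes leaned to gain in the interval, as they did over the genome. At least a 4-fold gain with an adjusted p under the threshold was seen in 305 windows of the control lineage (8.28% of those tested) and 267 of the DDT lineage (7.48%), against 3.72% and 4.67% in the rest of the chromosome and 5.15% and 5.92% over the genome. A 4-fold loss was seen in 34 (0.923%) and 37 windows (1.04%), against 1.61% and 1.41% in the rest of the chromosome and 0.7% and 0.747% over the genome. Leaving out 1 control morula library gave 683 to 770 called windows in the control lineage in place of 1333, and leaving out control sperm replicate 2 gave 860. Leaving out the shallow sperm library of each lineage raised the calls. Without control sperm replicate 3 there were 1048 higher and 958 lower windows (28.3% and 25.9%, against 19.4% and 30.2% in the rest of the chromosome), and without DDT sperm replicate 4 there were 873 and 1058 (24.2% and 29.3%, against 17.5% and 31.2%).

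Of the windows of the interval, 3566 were tested in both lineages. Among them 534 rose in both, 455 fell in both and 1 was opposite. Over these windows the control lineage had 689 higher and the DDT lineage 749, and the shared gains are 77.5% and 71.3% of them, against 69.8% and 55.4% in the rest of the chromosome. The shared losses are 77.9% of 584 lower windows in the control lineage and 57.0% of 798 in the DDT lineage, against 73.1% and 60.5%. The log2 differences of both lineages had the same sign in 85.2% of the windows of the interval and 84.4% of those of the rest. These comparisons share no library. The authors' deposited values, at their own adjusted p under 0.05, rest on other sets of tested windows. In control morulae 624 of 3405 windows of the interval were higher and 449 lower, and in DDT morulae 532 of 3099 were higher and 510 lower. Their shares in the rest of the chromosome and the genome were not counted.

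Windows with little sperm signal have little to lose, so windows were sorted into 5 classes, using the sperm libraries of the lineage that does not enter the comparison. The interval held more windows of the lowest class than the rest of the chromosome did, with 23.4% against 19.7% in the control comparison and 24.6% against 19.7% in the DDT comparison. Only tested windows entered the medians: in that class 623 of 936 in the interval and 7439 of 10306 in the rest (control lineage). For the DDT lineage these were 556 of 983 and 6039 of 10259. Windows low in sperm pass the count filter more readily with high morula counts, which can raise the medians of that class. Over all its windows, control morulae averaged 0.176 CPM and control sperm 0.046 in the interval, against 0.167 and 0.057 in the rest. In the lowest class the median log2 difference in the control lineage was 1.75 in the interval and 1.41 in the rest. In the third class it was -0.03 against -0.23, and in the fourth -0.48 against -0.71. In the DDT lineage the corresponding medians were 1.76 against 1.60, -0.18 against -0.21 and -0.66 against -0.74. The interval's median lay above that of the rest in all 5 classes of both lineages, by less in the DDT lineage.

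**Figure D3:**
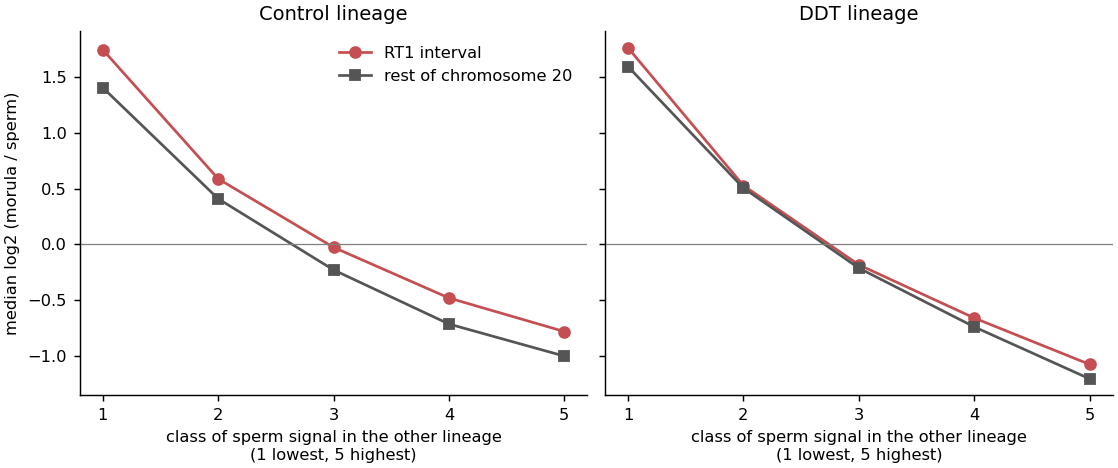
Tested windows in 5 classes, from the lowest to the highest sperm signal in the opposite lineage (x axis). Median log2 ratio of morula to sperm (y axis) for the RT1 interval (red circles) and the rest of chromosome 20 (grey squares). Both fall from about 1.75 in the lowest class of the interval to below 0 in the highest, and the red line lies above the grey in each class.

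On a coarser scale the interval held both higher and lower stretches. It was summed into 40 bins of 100 kb. By edgeR, with adjustment over all bins of the genome, control morulae exceeded control sperm in 13 bins and fell short in 14. DDT morulae exceeded DDT sperm in 14 and fell short in 17. The genome shares of higher and lower bins were 33.1% and 33.5% for the control lineage, and 39.5% and 37.5% for the DDT lineage. The same 12 bins were higher in both lineages and the same 14 lower in both, and none was opposite.

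The bins higher in both lineages formed 5 runs: 1500001 to 1800000, 2300001 to 2600000, 2900001 to 3200000, 4600001 to 4800000, and the single bin 5300001 to 5400000. Between them lay the lower bins, as single bins at 1900001, 2100001 and 3800001, and as runs at 3300001 to 3700000, 4000001 to 4200000, 4300001 to 4600000 and 5000001 to 5200000. The run at 2900001 to 3200000 averaged 49.6 ± 1.49 CPM per bin in control morulae (SD, n = 3) and 51.0 ± 1.21 in DDT morulae (SD, n = 3), against 29.7 ± 1.15 in control sperm (SD, n = 3) and 33.5 ± 1.57 in DDT sperm (SD, n = 4). The run at 4300001 to 4600000 had the opposite order, with 38.0 ± 1.83 and 36.5 ± 0.345 CPM per bin in morulae against 60.2 ± 8.48 and 62.9 ± 9.39 in sperm.

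The bin at 3000001 to 3100000 had the largest log2 gain of the interval in both lineages. It held 58.5, 62.3 and 62.5 CPM in control morulae and 65.6, 63.2 and 61.0 in DDT morulae, against 30.2, 30.2 and 33.0 in control sperm and 35.7, 34.2, 41.0 and 34.3 in DDT sperm. All morula libraries lay above all sperm libraries. Its log2 difference was 0.94 ± 0.07 (SE) in the control lineage and 0.78 ± 0.07 in the DDT lineage (edgeR adjusted p = 1.1e-04 and 1.2e-05).

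The bin at 4500001 to 4600000 had the largest log2 loss in both lineages. It held 36.7, 38.4 and 34.5 CPM in control morulae and 36.0, 35.7 and 35.3 in DDT morulae, against 63.6, 76.3 and 64.9 in control sperm and 74.6, 72.6, 65.5 and 58.2 in DDT sperm. Again no morula library reached any sperm library. The log2 difference was -0.93 ± 0.09 (SE) and -0.95 ± 0.09 (edgeR adjusted p = 2.3e-04 and 1.3e-05). It borders directly on the gaining run at 4600001 to 4800000, where the bins averaged 84.4 ± 2.97 CPM in control morulae and 58.7 ± 3.99 in control sperm (SD, n = 3 each).

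The interval's highest morula level was in the bin at 2500001 to 2600000, with 90.5 ± 1.12 CPM in control morulae (SD, n = 3) and 64.8 ± 9.94 in control sperm (SD, n = 3). Its lowest lay close by, at 2800001 to 2900000, with 17.8 ± 1.34 in control morulae and 14.2 ± 5.30 in control sperm (SD, n = 3 each). That stretch did not pass the test in either lineage.

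**Figure D4:**
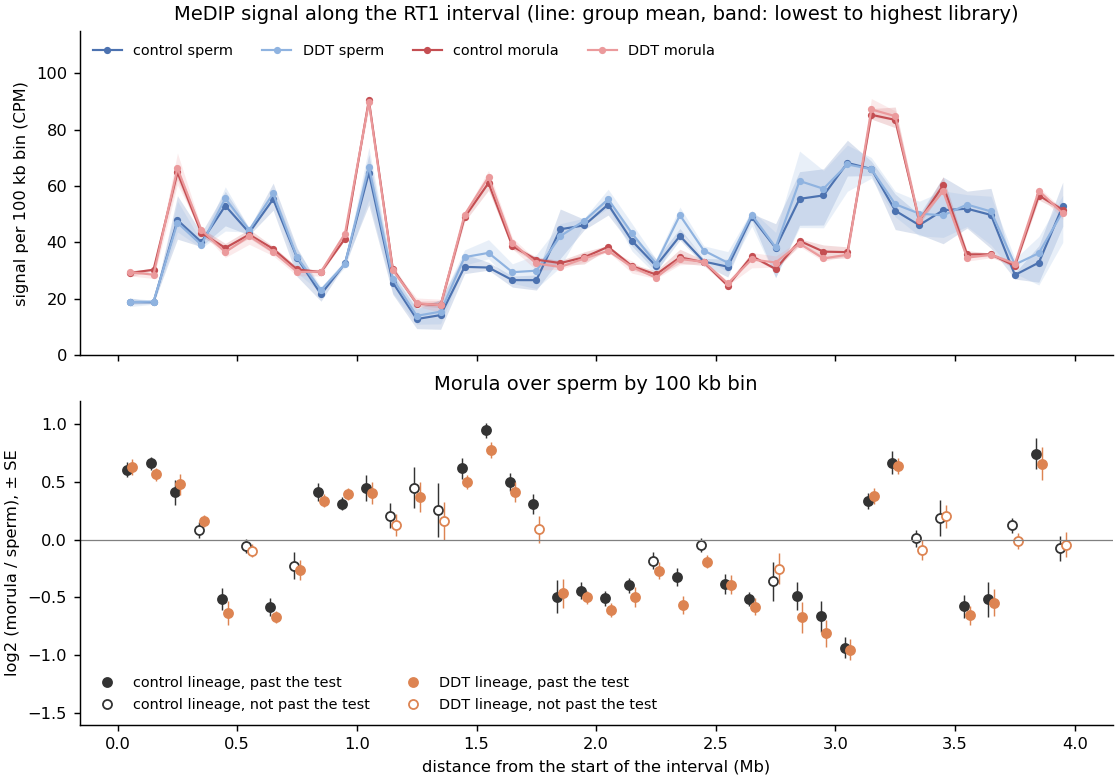
Top, signal of each 100 kb bin (CPM, y axis) against distance from the start of the interval (Mb, x axis), with a line for each group's mean and a band from its lowest to its highest library. Bottom, log2 ratio of morula to sperm with its SE by lineage, filled where the bin passed the test; it peaks at 0.94 and 0.78 at 1.5 Mb and bottoms at -0.93 and -0.95 at 3.0 Mb.

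Single windows are named by their first base. The gains of smallest p began from almost no sperm signal. Window 2700001 held 0.805, 0.544 and 0.777 CPM in control morulae and 0.740, 0.981 and 0.599 in DDT morulae. In sperm it had 1 count over the 3 control libraries and 3 over the 4 DDT libraries. Its ratio of pooled counts was 261 (exact 95% counting interval 46.0 to 10404) in the control lineage and 97.9 (32.5 to 483) in the DDT lineage. Such intervals reflect counting error alone, as the reads carry no molecular identifiers.

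Window 4878001 showed the same picture, with 0.714, 0.714 and 0.736 CPM in control morulae and 0.898, 0.809 and 0.749 in DDT morulae. It had 2 counts in control sperm and 1 in DDT sperm. The pooled ratio was 133 (36.0 to 1108) and 310 (54.3 to 12355). Both windows passed the count filter only through their morula counts. Both passed edgeR's test in both lineages, with adjusted p = 1.4e-04 for each in the control lineage. In the DDT lineage the edgeR adjusted p was 7.0e-09 and 5.0e-09.

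Window 4791001 was stronger in absolute terms. It held 2.28, 2.45 and 2.88 CPM in control morulae and 2.80, 2.33 and 2.40 in DDT morulae, against 0.159, 0.196 and 0.066 in control sperm and 0.277, 0.267, 0.140 and 0.178 in DDT sperm. It rose by 3.85 ± 0.37 on the log2 scale in the control lineage and 3.39 ± 0.31 in the DDT lineage (SE; edgeR adjusted p = 1.5e-04 and 2.3e-08). The control lineage further named windows 4942001 and 4698001, and the DDT lineage 4943001 and 4648001, with log2 differences of 3.89, 4.28, 4.35 and 3.98. Windows 4942001 and 4943001 are neighbours. Of these 7 windows, 6 lie between 4648001 and 4944000.

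Losses started from higher levels and left signal behind. Window 3425001 held 1.58, 2.11 and 1.45 CPM in control sperm and 0.304, 0.289 and 0.429 in control morulae, a log2 difference of -2.49 ± 0.35 (SE; edgeR adjusted p = 3.4e-04). In the DDT lineage its sperm libraries held 1.31, 0.906, 0.779 and 0.713 CPM and its morula libraries 0.238, 0.662 and 0.300. Window 2184001 was the loss of smallest p in the DDT lineage, with 2.91, 3.12, 2.69 and 1.45 CPM in sperm and 0.581, 0.637 and 0.574 in morulae, a log2 difference of -2.25 ± 0.32 (SE; edgeR adjusted p = 1.3e-05). The other 4 named in the control lineage (4585001, 3590001, 1859001 and 5491001) fell by 2.06 to 2.45 on the log2 scale, and the other 4 in the DDT lineage (4551001, 2220001, 3380001 and 4387001) fell by 2.05 to 2.33.

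**Figure D5:**
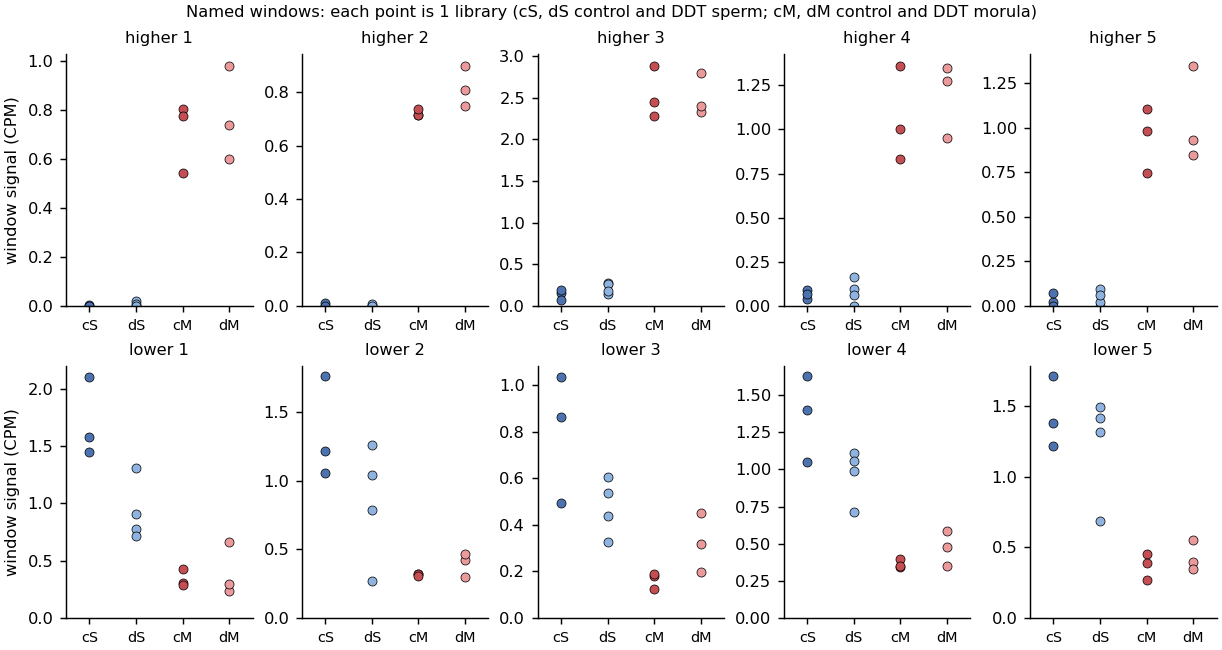
CPM (y axis, from 0, scaled by panel) of the 10 windows named in the control lineage, 1 point per library, by group (x axis: cS and dS, control and DDT sperm; cM and dM, control and DDT morulae). Higher 1 to 5 are windows 2700001, 4878001, 4791001, 4942001 and 4698001, where sperm stays near 0; lower 1 to 5 are 3425001, 4585001, 3590001, 1859001 and 5491001, where morula signal stays above 0.

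Windows called the same way in both lineages formed 345 higher and 304 lower runs. A single window made up 68.7% and 70.1% of these runs, which is 237 of the 534 higher windows and 213 of the 455 lower ones, so the others had a neighbour called alike. The longest higher runs had 8 windows each, at 2997001 to 3005000, 3072001 to 3080000 and 4894001 to 4902000, with median log2 differences of 1.81, 1.93 and 2.01 in the control lineage. The longest lower runs had 6, at 3379001 to 3385000 and 4581001 to 4587000, with medians of -1.69 and -1.68. In the rest of chromosome 20, 80.6% of higher and 66.7% of lower runs were single windows, and the longest had 6 and 16. The run of 6 higher windows at 3791001 to 3797000 had the steepest medians of those with at least 5 windows, at 3.15 and 3.36.

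The 5 windows of highest mean signal had strong signal in both tissues. How far methylation or CpG content sets that level was not tested. Window 4765001 led, with 4.02 ± 0.275 CPM in control morulae (SD, n = 3), 3.86 ± 0.544 in DDT morulae (SD, n = 3), 3.51 ± 0.404 in control sperm (SD, n = 3) and 4.20 ± 0.733 in DDT sperm (SD, n = 4). It passed the test in neither lineage, nor did windows 1727001 and 1799001. Window 4686001 fell from 4.40 ± 0.303 to 2.48 ± 0.368 CPM in the control lineage (SD, n = 3 each), a log2 difference of -0.96 (edgeR adjusted p = 0.030), and by 0.92 in the DDT lineage (edgeR adjusted p = 0.013). Window 3634001 fell by 0.90 in the DDT lineage (edgeR adjusted p = 0.016), and its log2 difference in the control lineage was -0.66 (edgeR adjusted p = 0.11).

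At the other end, 180 windows of the interval (4.5%) had no count in any library, against 3.37% in the rest of the chromosome. They formed 48 runs. The longest covered 18 windows at 2953001 to 2971000, inside the run of bins that gained in morulae. How reads matching several places were handled is not given in the sources used here. Class I genes include duplicated copies, so signal over duplicated DNA is uncertain.

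Libraries of one tissue resembled each other window by window. Pearson's r of log2(CPM + 0.1) over the interval's windows was 0.818 to 0.890 between morula libraries, against 0.721 to 0.817 over the rest of the chromosome. Between the 5 other sperm libraries it was 0.909 to 0.959, and between morula and those sperm libraries 0.596 to 0.715. The sperm libraries standing apart correlated with each other at 0.900 and with the other sperm libraries at 0.764 to 0.838. These values are descriptions over windows of unequal CpG content, and depth differs between the libraries. With 0.1 CPM added to each value, no window of the interval varied 8-fold or more within a group. In the rest of the chromosome 0.0134% of windows did so in control sperm, 0.00575% in DDT sperm and 0% in either morula group. The added 0.1 CPM keeps windows of low signal from reaching 8-fold, so this does not measure how well replicates matched.

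The comparison the exposure was designed for found no window of the interval past the test. In morulae 3619 windows were tested for DDT against control, 0 passed (edgeR), and 180 (4.97%) had an unadjusted p under 0.05. Over the genome 3.89e-05% of windows passed. That fit pooled the spread over all windows and used none of the individual ones. In sperm 3515 were tested, 0 passed, and 212 (6.03%) had an unadjusted p under 0.05. The genome share was 0%. The interaction, which asks whether the DDT difference itself differs between morula and sperm, was tested in 3649 windows. None passed, 213 (5.84%) had an unadjusted p under 0.05, and the genome share was again 0%. In the authors' deposited table, too, no window of the interval had an adjusted p under 0.05 for DDT against control in either tissue.

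The smallest p values of the interval did not survive adjustment. In morulae, window 2672001 held 0.668, 1.07 and 0.961 CPM in controls and 0.264, 0.368 and 0.424 in the DDT lineage, without overlap (log2 difference -1.30 ± 0.31, SE, edgeR adjusted p = 0.76). Window 2877001 held 0.516, 0.493 and 0.511 against 0.185, 0.172 and 0.0999 (-1.70 ± 0.44, edgeR adjusted p = 0.89). On the higher side, windows 5086001 and 4179001 had log2 differences of 1.38 and 1.46, with edgeR adjusted p of 0.98 for each.

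In sperm, window 5316001 held 0.546, 0.480 and 0.362 CPM in controls and 1.71, 1.70, 1.73 and 0.505 in the DDT lineage. The last value, of replicate 4, lies among the controls. Its log2 difference was 1.64 ± 0.37 (SE; edgeR adjusted p = 0.84). Window 2392001 held 0.297, 0.346 and 0.461 CPM in controls against 0.858, 1.08, 1.24 and 0.683, without overlap (1.53 ± 0.32, SE; edgeR adjusted p = 0.84). It also had the smallest p of the interaction, with a log2 interaction of -2.06 ± 0.46 (SE; edgeR adjusted p = 0.87). Its morula libraries held 0.547, 0.969 and 1.12 CPM in controls and 0.713, 0.686 and 0.474 in the DDT lineage, which overlap. On the lower side, windows 3711001 and 2295001 had log2 differences of -1.85 and -1.58, with edgeR adjusted p of 0.84 for each. Windows 3102001 and 1897001 had the next smallest p of the interaction (edgeR adjusted p = 0.87 for each). The second had a log2 interaction of -2.47 ± 0.61 (SE). The first had 0 counts in all 3 control sperm libraries and 3, 5, 5 and 1 in DDT sperm, so its fitted size depends on how the fit treats a group at 0 and is not given.

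The sperm result depended on the pair of libraries that stand apart. With control sperm replicate 3 and DDT sperm replicate 4 left out together, 2 control libraries remained against 3 of the DDT lineage. Of 3603 windows, 328 (9.10%) were then higher and 106 (2.94%) lower in DDT sperm by edgeR. The genome shares were 6.4% and 4.02%, and those of the rest of chromosome 20 were 7.11% and 5.23%. In either direction, 12.0% of the interval's windows were called, against 12.3% in the rest of the chromosome. The overall share was thus near the background, while its split leaned further to higher signal in the interval. With either library alone left out, the count remained 0. With both left out, windows 5316001 and 2392001 passed, with log2 differences of 1.80 and 1.77 (edgeR adjusted p = 3.7e-11 and 3.5e-09). Window 2295001 passed there at -1.45 (edgeR adjusted p = 0.022). These windows had been picked for their small p in the same sperm libraries, so their passing is no separate support. In window 5316001, DDT sperm replicate 4, left out here, was the DDT library that lay among the controls. Without both libraries the interaction gave 15 of 3676 windows (0.408%), all negative. The share called was 0.412% in the rest of chromosome 20 and 0.32% over the genome. Negative calls prevailed there too, with 150 against 53 positive in the rest and 5688 against 2559 over the genome.

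Among the 100 kb bins, 0 passed for DDT against control in morulae, in sperm or for the interaction (edgeR, and DESeq2 as another test), with 1, 4 and 1 of the 40 at an unadjusted p under 0.05. Over the genome 0.00719% of bins passed in morulae, 0% in sperm and 0% for the interaction. The log2 difference in sperm was above 0 in 31 of the 40 bins, with a median of 0.05 (also with scaling by library size), whereas 42.5% of bins in the rest of the chromosome were above 0. In morulae 20 of 40 were above 0. Without the pair of sperm libraries, 5 bins (12.5%) passed in sperm, all higher in the DDT lineage. The genome shares were 8.11% higher and 6.92% lower, and those of the rest of chromosome 20 were 6.51% and 7.09%. In the rest of the chromosome 13.6% of bins were called in either direction. The number of bins called was thus not above the background, and only its split, on 5 bins, leaned to higher signal.

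Those 5 bins began at 2900001, 3000001, 3800001, 3900001 and 5200001, with log2 differences of 0.24, 0.29, 0.26, 0.19 and 0.24. In the bin at 3800001 the 2 control libraries kept held 41.1 and 45.0 CPM, and the 3 of the DDT lineage 52.6, 51.3 and 50.8. The pair left out held 40.9 and 44.1 CPM there, so that DDT sperm replicate 4 lay within the range of the controls. The bin at 3000001 is also the one with the largest log2 gain in morulae.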

How the data were processed

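The 4 tables deposited by the authors hold read counts per 1000 bp window, beside log2 fold changes and p-values of the authors' own edgeR comparisons. Rnor_6.0 is the build in the submitters' processing notes, which list edgeR, Bowtie2, SAMtools, Trimmomatic and FastQC. Versions, duplicate removal and the treatment of reads matching several places are not given in the sources used here. Counts shared between tables were identical, and 26 further columns of per-sample values (RPKM) were not used.

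Counts were tested with edgeR 4.0.16 in R 4.3.3 (quasi-likelihood, TMM scaling, two-sided) over all windows of the genome that averaged 5 or more counts per library, and over 100 kb bins. The design called for the default settings of that version. The fit reported uses the newer form of glmQLFit (legacy = FALSE), a choice made after the files were seen, to match an earlier analysis of these data, and the default form with a trended dispersion is an alternative. Adjusted p-values are Benjamini-Hochberg over the genome. Ratios over libraries were compared by exact permutation. The procedure was tested on simulated data.

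The windows named are the 5 of smallest p per direction that passed without overlap between groups, or the 2 of smallest p where none passed, 3 for the interaction, and the 5 of highest mean CPM. The windows, lists and rules were chosen with earlier results of these data known. Equal replicate numbers deviated together in the control lineage over 100 kb bins (r = 0.115 to 0.394 in 3 pairs), the labels giving no basis for pairing. The counting floor of 3 counts was 0.0155 to 0.0987 CPM per library.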

Additional observations from a re-analysis of the deposited data

Results flagged for a closer look

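Of 43 values of the 4 DDT sperm libraries that were looked at, 8 had 1 library far from the other 3, which chance alone gives in about 1 of 20. In 7 of the 8 that library was DDT sperm replicate 4, which also stands apart in depth, and the part of depth in these values was not tested. In it 12.9% of the interval's windows were empty, while the others had 5.90% to 6.53%. It was low in window 5316001, at 0.505 CPM against 1.70 to 1.73, in window 2220001, at 0.891 against 1.42 to 1.44, and in window 3634001, at 2.32 against 4.86 to 5.23. In windows 1727001 and 1799001 it was high, at 3.95 CPM against 2.62 to 2.66 and at 4.66 against 2.55 to 2.71. The 100 kb bin at 4100001 held 45.8 CPM in it and 51.1 to 51.4 in the others. In window 4878001, DDT sperm replicate 3 held 0.00779 CPM, which is 1 count, and the others were at 0.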

How the results depend on the processing

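Among the called counts, 54 of 61 alternative values for windows and 51 of 52 for bins equalled the value reported or stayed within 1.5 times of it. For DDT against control and for the interaction, the values so counted were 0 beside a reported 0, to which a fold does not apply. The default form of edgeR called 1166 control lineage windows in place of 1333 and 1432 DDT lineage windows in place of 1548. It called 0 for DDT against control in either tissue. Leaving out both sperm libraries that stand apart moved the DDT comparison in sperm from 0 to 434 windows and from 0 to 5 bins, and the interaction from 0 to 15 windows. Leaving out 1 replicate gave 683 (without control morula replicate 1) to 2006 windows (without control sperm replicate 3) in the control lineage, 770 and 724 without control morula replicates 2 and 3, and 860 without control sperm replicate 2. In the DDT lineage it gave 1034 to 1931. The ratio of interval to rest of the chromosome was -0.029 in the DDT lineage (exact permutation p = 0.771) and 0.0013 over both lineages (exact permutation p = 0.979) with the whole library outside the interval as denominator. The denominator sets this, since the rest of chromosome 20 fell in morulae. Leaving out 1 replicate gave 0.182 to 0.243 in the DDT lineage, where the exact permutation p was 0.0667 to 0.10, the smallest that fewer libraries allow. Scaling by library size gave 845 higher and 504 lower windows, in place of 748 and 585, for the control lineage, and 840 and 648, in place of 750 and 798, for the DDT lineage.

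A replicate block gave 1174 windows and 29 bins in the control lineage, 1875 windows and 35 bins in the DDT lineage, and 0 for DDT against control in both tissues, and moved no count by over 1.5 times. Same-numbered libraries correlated at -0.192 to 0.258 in the DDT lineage, -0.281 to 0.139 for DDT against control in morulae and -0.631 to 0.809 in sperm, so the number was not taken as a pairing there. The median window of the interval held 6 and 7 counts in the sperm libraries that stand apart and 12 to 60 in the other 11.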
